A study of Mus musculus with 6 samples.

Results

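Collagen genes encode the chains of the matrix proteins that give bone its organic framework. Measured here was their RNA in mouse femur, in 3 knockout-labelled and 3 corn oil control libraries. All genes of the deposited gene table whose symbol follows the pattern Col, a type number, the letter a and a chain number were taken, which gave 44 genes of the 34361 in the table. The knockout-labelled animals received tamoxifen to induce a knockout, and the controls were injected with corn oil; the design text gives 3 mice per group. That text names Fshr, the receptor of follicle-stimulating hormone, as the deleted gene, whereas the samples' own treatment label gives FGF21, so the group is called knockout-labelled throughout. The series title speaks of osteocytes and of ovariectomized mice, but the labels do not state the Cre driver, the age or sex of the animals, or whether these femora came from ovariectomized mice. Tamoxifen was given to the knockout-labelled group alone, so the drug and the knockout cannot be told apart.

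A collagen molecule is a helix of 3 alpha chains, made either of identical chains or of the products of different genes. Fibrillar collagens pack into the fibres of bone, tendon and skin, and type I is the main protein of bone matrix, while types II and XI form the thinner fibrils of cartilage. Other types coat these fibrils, form the sheet-like networks of basement membranes, assemble into beaded microfibrils or span the cell membrane. Each chain is hydroxylated and glycosylated in the endoplasmic reticulum, folded with the help of dedicated chaperones, trimmed by proteases on secretion and crosslinked by lysyl oxidases. The 44 genes were grouped here into 8 fibrillar genes, 7 cartilage genes, 6 FACIT genes (collagens that bind to the surface of fibrils), 9 basement membrane genes, 8 network and beaded filament genes, and 6 membrane-spanning and other genes.

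Estimated counts summed to 65.8 to 73.5 M per library, or about 16.4 to 18.4 M read pairs if a pair adds 4 counts. Replicates of a group lay close together. On counts divided by 4, the chi-square per degree of freedom was 2.02 to 2.49 for pairs of libraries within a group and 325 to 346 for pairs between groups. The SE and edgeR p-values below rest on this narrow spread between libraries, and whether it covers the spread between animals was not tested. Fshr and Fgf21 had 0 counts in all 6 libraries, where 3 read pairs would have been 0.163 to 0.182 CPM (counts scaled to library depth), so the files could not check the deletion of either gene. Markers of osteoblasts and osteocytes, the cells that form and inhabit bone, were present in every library and held 0.462% to 0.466% of counts in knockout-labelled femora and 1.45% to 1.48% in control femora. Of these 14 markers 12 were lower and 2 were higher with TMM. Of all genes tested with TMM, 28.8% were lower and 28.7% were higher, which is also the background of the marker counts below. The higher ones, named after their values were seen, were osteocyte genes: Sost, which encodes the Wnt inhibitor sclerostin, had a log2 fold change of 0.95 with TMM, 0.53 with library totals and 0.18 with TPM, and Mepe, a matrix protein gene, 0.18, -0.24 and -0.60 under the same scalings. Markers of skeletal muscle moved the other way, at 10.6% to 10.7% of counts in knockout-labelled and 2.22% to 2.26% in control femora, with 15 of 15 markers higher. Adipocyte markers were also higher, 8 of 8, at 0.0631% to 0.0649% in knockout-labelled and 0.0153% to 0.0159% in control femora. Pericyte and smooth muscle markers had 6 of 8 higher and 1 lower with TMM, at 0.269% to 0.273% and 0.136% to 0.138%. With TPM, however, 3 were higher and 4 lower, where 13.3% of all genes tested were higher and 77.9% lower. The part of these cell types in the collagen differences was not tested. In these bulk samples, fewer cells of a type and less RNA per cell cannot be told apart.

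Collagen RNA was much scarcer in the knockout-labelled femora. The 44 genes together held 1.96%, 1.98% and 1.98% of counts in knockout-labelled libraries, and 9.50%, 9.40% and 9.36% in the controls. The groups were far apart, with means of 1.97% ± 0.0108 and 9.42% ± 0.0731 (SD, n = 3 each; exact permutation test, two-sided, p = 0.1, the smallest that 3 against 3 allows). With the 15 muscle markers and the 13 mitochondrially encoded protein genes left out of all counts, the shares were 2.56% in knockout-labelled and 10.2% in control femora. Leaving out Col1a1 and Col1a2 as well, they were 0.556% and 1.64%, so the difference was present beyond type I collagen.

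Of the 44 collagen genes, 42 passed the filter on low counts, and Col4a6 and Col19a1, each with at most 3 read pairs in any library, did not. In the knockout-labelled femora 29 of the 42 passed the test as lower, 8 as higher and 5 did not pass it (edgeR quasi-likelihood test with TMM scaling, Benjamini-Hochberg adjusted p under 0.05). That is 69.0% lower and 19.0% higher, where among all 20388 genes tested 28.8% were lower and 28.7% were higher. The median log2 fold change was -0.74 over the collagens and -0.02 over all genes tested. At least 2-fold lower were 19 collagens and at least 2-fold higher were 6, against 8.12% and 12.1% of all genes tested. In FPKM (fragments per kilobase of transcript, scaled to depth by the authors), the 3 knockout-labelled libraries lay wholly below the 3 controls for 32 of the 44 genes and wholly above them for 5, and the groups overlapped for 7; of all genes tested, 54.6% lay wholly below and 17.9% wholly above.

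Abundant and rare members are given apart. Among the 27 collagens that averaged at least 1 FPKM in either group, 25 were lower, Col14a1 was higher and Col23a1 did not pass, with a median log2 fold change of -1.21; of all genes at that level, 35.9% were lower and 35.4% higher. Of the 17 rarer collagens 15 were tested, with 7 higher, 4 lower and 4 short of the threshold and a median of 0.16, where 13.8% of all genes under 1 FPKM were higher and 13.0% lower. The higher calls thus belong, with 1 exception, to genes under 1 FPKM in both groups. Directions are relative to the scaling. Library totals in place of TMM move the median of all genes by -0.42 on the log2 scale, and TPM moves it by -0.73. Under library totals 31 collagens were lower and 4 higher (50.7% and 16.6% of all genes), while under TPM 26 of the 27 tested were lower and Col14a1 was higher (77.9% and 13.3% of all genes). Col20a1, which did not pass in either setting, was the collagen whose sign turned under library totals (log2 fold change 0.16 with TMM and -0.26 with library totals).

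**Figure D1:**
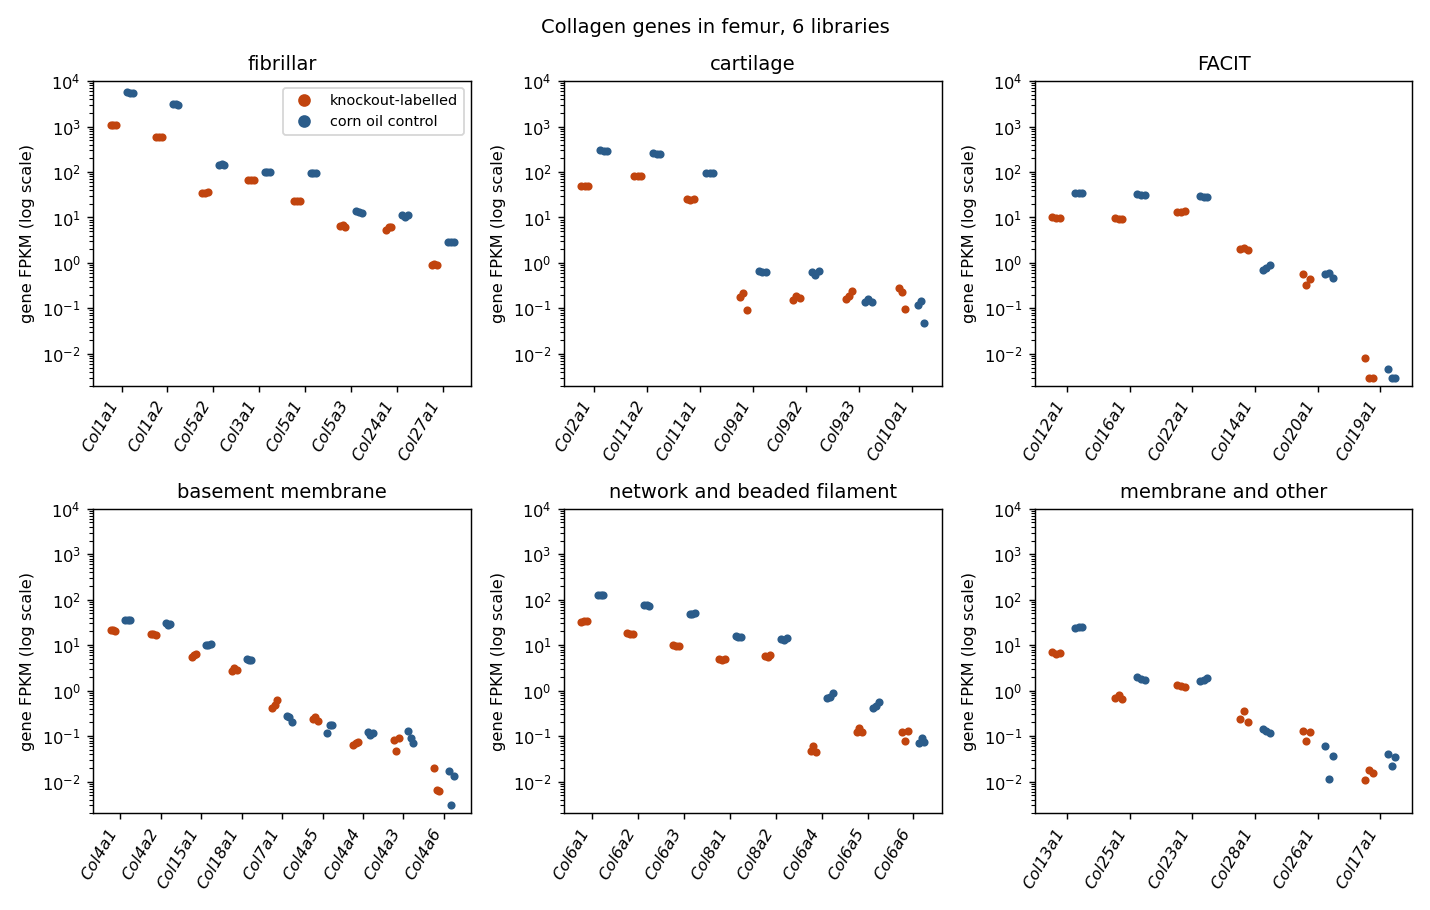
FPKM of each collagen gene (log axis) in the 3 knockout-labelled (orange, left) and 3 corn oil control libraries (blue, right), by class; points are libraries and values of 0 are drawn at 0.003. Of the 27 genes with a group mean of at least 1 FPKM, 26 lie lower in the knockout-labelled libraries and Col14a1 lies higher, while several genes under 1 FPKM lie higher or overlap.

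**Figure D2:**
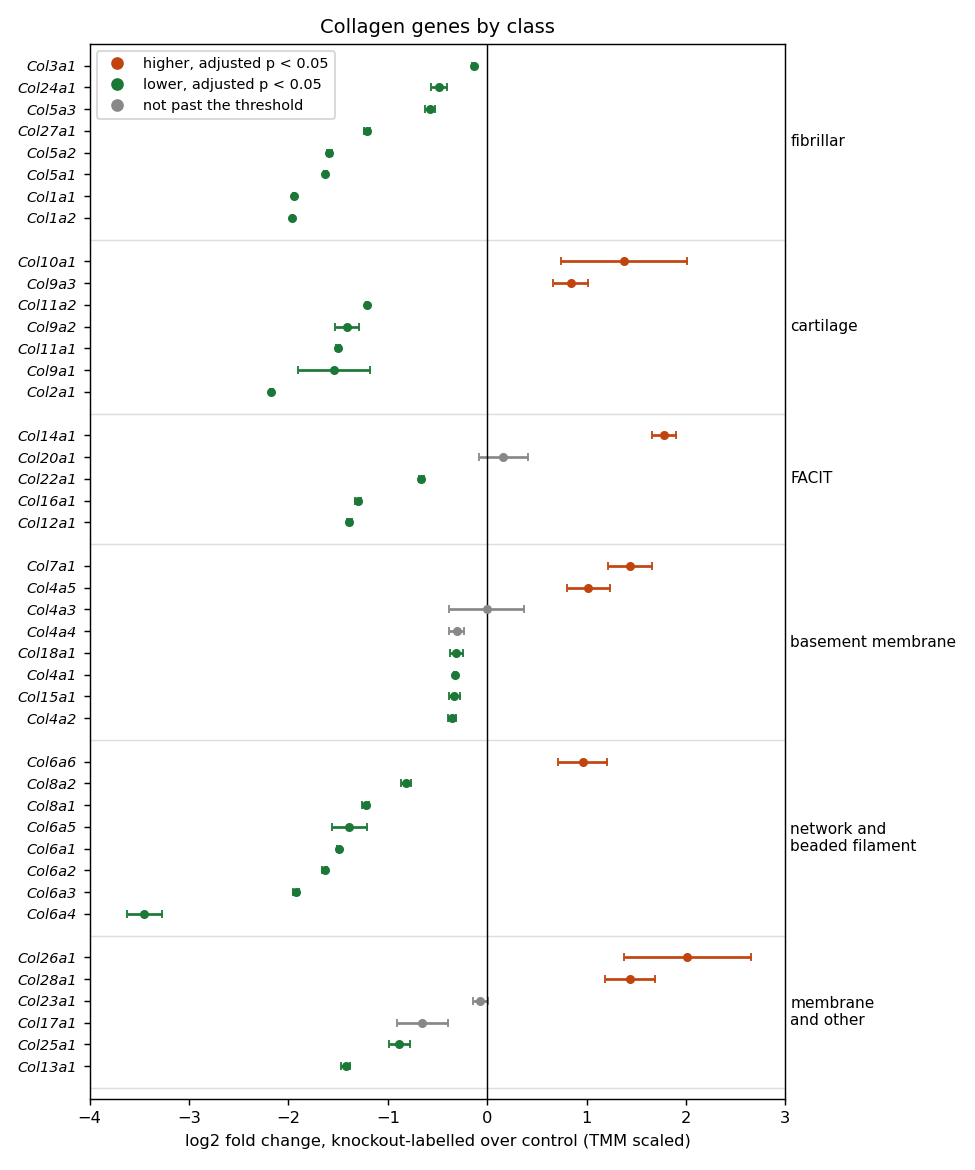
log2 fold change, knockout-labelled over control, of the 42 collagen genes tested, by class; bars are ±1 SE from the spread between replicates, and colours give the edgeR call. All 8 fibrillar genes lie left of 0, with Col3a1 the closest to it.

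All 8 fibrillar collagen genes were lower. Col1a1, the alpha 1 chain of type I collagen (ENSMUSG00000001506, chromosome 11, 94827050 to 94843868, plus strand, GRCm39), had 1059, 1081 and 1080 FPKM in the knockout-labelled libraries and 5611, 5500 and 5499 FPKM in the controls. Col1a2, the alpha 2 chain (ENSMUSG00000029661, chromosome 6, 4504814 to 4541544, plus strand), had 581, 587 and 590 FPKM in the knockout-labelled libraries and 3101, 3065 and 3030 FPKM in the controls. For both genes every knockout-labelled library lay far below every control, and the log2 fold changes were -1.94 (SE 0.0089, edgeR adjusted p = 7.5e-19) for Col1a1 and -1.96 (SE 0.0073, edgeR adjusted p = 6.4e-19) for Col1a2. With TMM, type I collagen thus was 3.84-fold and 3.89-fold lower by its 2 chains. The log2 fold changes of Col1a1 and Col1a2 were larger without TMM. They were -2.36 and -2.38 with library totals, and -2.72 and -2.74 with TPM.

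The start of Col1a2 is shown because this gene changed the most among the abundant fibrillar genes. In the 250 bases before its annotated start (RefSeq, GRCm38.p6, chr6:4505368-4505617, plus strand), capitals mark the motifs searched, GGGCGG (the GC box) and CCAAT (the CCAAT box):
Col1a2 promoter: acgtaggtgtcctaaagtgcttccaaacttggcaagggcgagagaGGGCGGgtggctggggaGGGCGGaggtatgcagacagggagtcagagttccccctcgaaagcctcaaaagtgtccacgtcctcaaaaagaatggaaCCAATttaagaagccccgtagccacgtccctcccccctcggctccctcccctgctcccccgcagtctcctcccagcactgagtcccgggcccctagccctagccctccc
GGGCGG occurred at 2 places and CCAAT at 1, and TATAAA was not found there. Windows of 300 bases, from 250 before to 50 after the start, were available for 35 of the 44 collagen genes, leaving Col1a1, Col2a1, Col4a3, Col5a2, Col9a3, Col12a1, Col14a1, Col22a1 and Col26a1 without one. Searched on both strands, GGGCGG lay in 22 of the 35 genes and in 35.7% of the 32851 windows of all genes, CCAAT in 13 of 35 and 37.4%, and TATAAA in 5 of 35 and 13.6%. Each motif was counted on its own, and matches of different motifs can share letters at their ends. Of the genes with a window that were lower, 17 of 24 held GGGCGG and 10 of 24 held CCAAT; of those that were higher, 3 of 5 and 2 of 5 did. GC content had a median of 59.8% over the collagen windows and 52.7% over all windows, and GGGCGG is itself made of G and C. These matches describe letters and do not show binding.

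Type V collagen, which starts fibrils and limits their width, followed type I less far. Col5a1 averaged 23.0 ± 0.162 FPKM in knockout-labelled and 95.6 ± 1.33 FPKM in control femora, and Col5a2 35.5 ± 0.925 and 144 ± 2.11 FPKM (SD, n = 3 each), and their log2 fold changes were -1.63 (SE 0.012) and -1.59 (SE 0.024). The gene of another type V chain, Col5a3, fell by 0.58 on the log2 scale (SE 0.052). Col24a1, a fibrillar collagen found in developing bone, and Col27a1, found in cartilage, fell by 0.48 (SE 0.081) and 1.21 (SE 0.035).

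Col3a1 changed the least of the fibrillar genes. It encodes type III collagen, which forms fibrils with type I in skin, vessel walls and the stroma of soft organs. It had 65.7, 68.3 and 68.1 FPKM in the knockout-labelled libraries and 98.9, 99.2 and 100.5 FPKM in the controls. The groups did not overlap, but the log2 fold change was only -0.14 (SE 0.018, edgeR adjusted p = 4.7e-05), or 1.10-fold lower. The size of this difference depends on the scaling: it was -0.56 with library totals, which is close to that of the unscaled FPKM, and -0.91 with TPM, while the TMM factors were 0.863 to 0.866 in knockout-labelled and 1.16 in control libraries. Its neighbour Col5a2, 24614 bases away on chromosome 1 and on the opposite strand, fell by 1.59.

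Among cartilage collagens, 5 of 7 were lower and 2 were higher. Col2a1, the chain of type II collagen and of the cartilage fibril core (ENSMUSG00000022483, chromosome 15, 97873483 to 97902576, minus strand), had 49.4, 48.9 and 48.2 FPKM in knockout-labelled and 301, 292 and 293 FPKM in control libraries. Its log2 fold change of -2.17 (SE 0.017, edgeR adjusted p = 2.0e-16) was the lowest of all collagens above 1 FPKM. The change of Col2a1 was -2.59 with library totals and -2.94 with TPM. Col11a2, a chain of the type XI collagen that is incorporated in type II fibrils, had 81.5, 82.8 and 83.4 FPKM in knockout-labelled and 259, 253 and 255 FPKM in control libraries (log2 fold change -1.21, SE 0.0099). Its partner Col11a1 fell by 1.50 (SE 0.020).

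The other cartilage genes were rare. Col9a1 and Col9a2, chains of the type IX collagen that decorates type II fibrils, averaged 0.163 and 0.170 FPKM in knockout-labelled and 0.649 and 0.611 FPKM in control femora, and fell by 1.54 (SE 0.37) and 1.41 (SE 0.12). Their partner Col9a3 had 0.160, 0.191 and 0.236 FPKM in knockout-labelled and 0.142, 0.162 and 0.138 FPKM in control libraries. These groups overlapped in FPKM, and the TMM-scaled log2 fold change of 0.84 (SE 0.17) passed narrowly (edgeR adjusted p = 0.048), missed with library totals (adjusted p = 0.29) and missed when any of 5 of the 6 libraries was left out (knockout-labelled replicates 2 and 3 and each control, adjusted p = 0.068 to 0.15). Col10a1, the network collagen of hypertrophic cartilage, had 0.287, 0.233 and 0.0950 FPKM in knockout-labelled and 0.118, 0.146 and 0.0489 FPKM in control libraries. Its groups overlapped too, and its call (log2 fold change 1.38, SE 0.63, edgeR adjusted p = 0.046) was lost with library totals (adjusted p = 0.14) and without knockout-labelled replicate 1 or 2 or control replicate 1 or 3 (adjusted p = 0.083 to 0.18). At 3 to 16.5 read pairs per library, Col10a1 stood near the limit of detection.

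With TMM or library totals, most chondrocyte markers tested were not called lower as Col2a1 was. Of 12 chondrocyte markers 9 were tested. With TMM 4 were higher and 1 was lower, where 28.7% of all genes tested were higher and 28.8% lower. Under library totals 4 were higher and 2 lower. Under TPM 3 were tested, 1 higher and 2 lower, with a median log2 fold change of -0.41. None of the 12 was at 0 in every library. Acan, the aggregating proteoglycan of cartilage, averaged 0.687 FPKM in knockout-labelled and 0.220 FPKM in control femora, and Matn1, a cartilage matrix protein, 0.0205 and 0.0256 FPKM. The list's summed share of 0.0205% to 0.0213% of counts in knockout-labelled and 0.0401% to 0.0404% in control libraries was carried mostly by Pth1r, at 30.7 and 116 FPKM, a receptor that osteoblasts also make. Col2a1 thus averaged 48.8 FPKM in knockout-labelled and 295 FPKM in control femora, where Acan stayed under 1 FPKM.

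FACIT collagens, which sit on the surface of fibrils, had 3 of 5 tested members lower and 1 higher. Col12a1, found on type I fibrils of tendon and bone, had 10.1, 9.52 and 9.80 FPKM in knockout-labelled and 35.1, 34.2 and 34.1 FPKM in control libraries, a log2 fold change of -1.39 (SE 0.027). Col16a1 averaged 9.58 ± 0.336 FPKM in knockout-labelled and 31.7 ± 0.383 FPKM in control femora (SD, n = 3 each) and fell by 1.30. Col22a1, known from the junction of muscle and tendon, had 13.5, 13.5 and 13.6 FPKM in knockout-labelled and 29.7, 28.8 and 27.8 FPKM in control libraries. It fell by 0.66 (SE 0.025) with TMM. On that scaling 15 of 15 skeletal muscle markers and 8 of 10 tendon markers were higher, where 28.7% of all genes tested were. With TPM 15 of 15 muscle markers were higher, and of 10 tendon markers 6 were higher and 3 lower. Of all genes tested with TPM, 13.3% were higher and 77.9% lower.

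Col14a1 was the only collagen above 1 FPKM that was higher. It encodes type XIV collagen, a FACIT of skin, tendon and other soft connective tissue (ENSMUSG00000022371, chromosome 15, 55171146 to 55384199, plus strand). It had 2.04, 2.14 and 1.97 FPKM in knockout-labelled and 0.694, 0.790 and 0.915 FPKM in control libraries, with no overlap. The log2 fold change was 1.78 (SE 0.12, edgeR adjusted p = 4.2e-08), or 3.43-fold, and it was 1.36 with library totals. Tendon markers held 0.0924% to 0.0944% of counts in knockout-labelled and 0.0881% to 0.0903% in control femora, and fibroblast markers 0.210% to 0.213% and 0.277% to 0.280%. Of 10 fibroblast markers 4 were higher and 4 lower with TMM, where 28.7% of all genes tested were higher and 28.8% lower. The part of both cell types in the Col14a1 difference was not tested. Of the remaining members, Col20a1 averaged 0.448 ± 0.114 FPKM in knockout-labelled and 0.541 ± 0.0744 FPKM in control femora (SD, n = 3 each; edgeR adjusted p = 0.56), and Col19a1 had at most 1 read pair in any library.

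Basement membrane collagens had lower abundant members, by an amount that depends on the scaling. With TMM, of 8 tested, 4 were lower and 2 higher, and Col4a3 and Col4a4 did not pass; the median log2 fold change, -0.31, was the closest to 0 of the 6 classes on that scaling. Col4a1 and Col4a2 encode the chains of the type IV collagen found in nearly all basement membranes. Col4a1 had 21.1, 21.1 and 20.8 FPKM in knockout-labelled and 35.1, 35.8 and 35.1 FPKM in control libraries, and Col4a2 had 17.5, 17.4 and 16.9 FPKM in knockout-labelled and 31.2, 28.3 and 29.2 FPKM in control libraries. The log2 fold changes were -0.32 (SE 0.014, edgeR adjusted p = 1.7e-07) and -0.35 (SE 0.042, edgeR adjusted p = 2.8e-06). Without TMM they were larger, at -0.74 and -0.77 with library totals and -1.08 and -1.11 with TPM. Col15a1 and Col18a1, collagens of the basement membrane zone whose ends release antiangiogenic fragments, fell by 0.33 (SE 0.054) and 0.31 (SE 0.063). These 4 genes thus lay between -0.35 and -0.31 on the log2 scale with TMM, and endothelial markers, of cells that rest on such membranes, held 0.0406% to 0.0410% of counts in knockout-labelled and 0.0509% to 0.0520% in control femora. With TMM 4 of 8 endothelial markers were higher, 1 was lower and 3 did not pass, with a median log2 fold change of 0.06. Of all genes tested with TMM, 28.7% were higher and 28.8% lower. With library totals or TPM 8 of 8 were lower, with medians of -0.36 and -0.68, where 50.7% and 77.9% of all genes tested were lower.

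Col4a1 and Col4a2 lie head to head, and their annotated starts share 22 bases. The stretch around these starts is shown because both genes begin in it (RefSeq, GRCm38.p6, chr8:11312801-11312830, plus strand); capitals mark the bases that belong to both genes, Col4a2 reading to the right and Col4a1 to the left on the other strand:
Col4a1 and Col4a2 shared start: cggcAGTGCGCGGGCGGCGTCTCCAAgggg
The capitals run from the first base of Col4a2 at 11312805 to the first base of Col4a1 at 11312826. Their fold changes were close, and the ratio of Col4a1 to Col4a2 was 1.20, 1.22 and 1.24 in knockout-labelled and 1.13, 1.26 and 1.20 in control libraries, which overlap (exact permutation p = 0.7).

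The rarer chains of the class were measured with less certainty. Col4a5, an X-linked chain of the type IV collagen of kidney, lung and smooth muscle basement membranes, had 0.237, 0.264 and 0.212 FPKM in knockout-labelled and 0.117, 0.177 and 0.177 FPKM in control libraries. Its log2 fold change was 1.02 (SE 0.22, edgeR adjusted p = 0.0047), and with library totals it was 0.60 and missed the threshold (adjusted p = 0.059). Col7a1, which forms the anchoring fibrils under epithelia, had 0.418, 0.476 and 0.633 FPKM in knockout-labelled and 0.281, 0.270 and 0.205 FPKM in control libraries. In gene FPKM no libraries overlapped for these genes, and the log2 fold change of Col7a1 was 1.43 (SE 0.22, edgeR adjusted p = 3.6e-05). With FPKM summed over its transcripts, Col7a1 did overlap, at 0.475, 0.561 and 1.05 in knockout-labelled and 0.344, 0.510 and 0.246 in control libraries. Col4a3 and Col4a4 were at most 0.0900 and 0.0747 FPKM in knockout-labelled and 0.132 and 0.122 FPKM in control libraries and did not pass (edgeR adjusted p = 0.99 and 0.35), and Col4a6 had at most 3 read pairs.

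Network and beaded filament collagens had 7 of 8 members lower and 1 higher. Type VI collagen forms beaded microfibrils around cells from the chains of Col6a1, Col6a2 and another gene, most often Col6a3. Col6a1 had 33.1, 34.1 and 33.3 FPKM in knockout-labelled and 127, 126 and 128 FPKM in control libraries (log2 fold change -1.49, SE 0.014). Col6a2 had 18.5, 17.6 and 17.7 FPKM in knockout-labelled and 75.5, 75.1 and 73.8 FPKM in control libraries (log2 fold change -1.64, SE 0.026). Col6a3 averaged 9.68 ± 0.300 FPKM in knockout-labelled and 49.4 ± 0.409 FPKM in control femora (SD, n = 3 each) and fell further, by 1.92 (SE 0.030). All 3 chains were lower in every knockout-labelled library than in any control.

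The genes of the alternative chains of type VI collagen lie side by side on chromosome 9 and moved apart from one another. Col6a4 had 0.0477, 0.0593 and 0.0457 FPKM in knockout-labelled and 0.684, 0.708 and 0.909 FPKM in control libraries. Its log2 fold change of -3.45 (SE 0.18, edgeR adjusted p = 2.3e-08), or 10.9-fold lower with TMM, was the largest among the 42 collagens tested, at 7.75 to 9.25 read pairs per knockout-labelled library. Col6a5, 28810 bases from it, fell by 1.39 (SE 0.18). Col6a6, 27917 bases further on, had 0.125, 0.0799 and 0.131 FPKM in knockout-labelled and 0.0695, 0.0902 and 0.0734 FPKM in control libraries. These last groups overlapped, and the call of Col6a6 (log2 fold change 0.96, SE 0.25, edgeR adjusted p = 0.019) was lost with library totals (adjusted p = 0.15) and without knockout-labelled replicate 1 or 3 or control replicate 1 or 3 (adjusted p = 0.054 to 0.070). Col8a1 and Col8a2, chains of the hexagonal network of vessel walls and cornea, fell by 1.23 (SE 0.034) and 0.81 (SE 0.050).

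Membrane-spanning and other collagens went both ways. Col13a1, a transmembrane collagen of cell contacts including the neuromuscular junction, had 6.91, 6.46 and 6.86 FPKM in knockout-labelled and 23.4, 24.7 and 24.9 FPKM in control libraries (log2 fold change -1.43, SE 0.045). Of 9 markers of the neuromuscular junction 7 were higher and 1 was lower with TMM, where 28.7% of all genes tested were higher and 28.8% lower. With TPM 3 of 6 tested were higher and 2 lower, where 13.3% of all genes tested were higher and 77.9% lower. The summed share of these markers was 0.0148% to 0.0151% of counts in knockout-labelled and 0.0382% to 0.0387% in control femora. The marker lower with TMM was Lrp4, with a log2 fold change of -1.66. Col25a1, another transmembrane collagen, averaged 0.724 ± 0.0773 FPKM in knockout-labelled and 1.80 ± 0.140 FPKM in control femora (SD, n = 3 each) and fell by 0.88. Col23a1 had 1.30, 1.26 and 1.17 FPKM in knockout-labelled and 1.65, 1.74 and 1.88 FPKM in control libraries. Its groups lay apart in FPKM, yet with TMM it did not pass (log2 fold change -0.07, edgeR adjusted p = 0.61), and with library totals it did in the lower direction (-0.49, adjusted p = 0.0013).

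Both higher members of this class were rare. Col28a1, a collagen of peripheral nerve, had 0.238, 0.353 and 0.203 FPKM in knockout-labelled and 0.144, 0.127 and 0.115 FPKM in control libraries (log2 fold change 1.44, SE 0.25, edgeR adjusted p = 0.0015). Col26a1, first described in testis and ovary, had 0.128, 0.0773 and 0.123 FPKM in knockout-labelled and 0.0592, 0.0114 and 0.0357 FPKM in control libraries (log2 fold change 2.01, SE 0.64, edgeR adjusted p = 0.0051). Neither overlapped between groups in gene FPKM. With FPKM summed over its transcripts, Col26a1 did overlap. It was then 0.440, 0.254 and 0.397 in knockout-labelled and 0.261, 0.0624 and 0.133 in control libraries. The gene FPKM of Col26a1 implies a length 3.42 times that of its transcripts, and the gene had 281 estimated counts over all 6 libraries. Schwann cell markers had 3 of 8 members higher and 2 lower with TMM, where 28.7% of all genes tested were higher and 28.8% lower. With library totals 1 was higher and 4 were lower, and with TPM 3 were tested, 1 higher and 2 lower. These markers held 0.00744% to 0.00806% of counts in knockout-labelled and 0.0110% to 0.0112% in control femora, and their part in the Col28a1 difference was not tested. Col17a1, of the anchoring complexes of epithelia, had 1.25 to 2 read pairs in knockout-labelled and 2.75 to 4.5 in control libraries and did not pass (edgeR adjusted p = 0.44).

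The make-up of the collagen RNA was compared by class. For levels between genes, FPKM was summed over the transcripts of a gene, since the gene-level FPKM divides by unequal lengths: the length it implies for Col1a2 is 12424 bases, 2.33 times that of its transcripts (5340 bases), and for Col1a1 the factor is 1.11. On that scale the fibrillar genes made up 86.1% ± 0.177 of collagen in knockout-labelled and 89.2% ± 0.0434 in control femora (SD, n = 3 each). Basement membrane genes made up 1.68% and 0.583%, FACIT genes 1.44% and 0.821%, cartilage genes 7.28% and 6.58%, and network genes 3.07% and 2.56%. Col3a1 made up 3.69% of collagen in knockout-labelled and 1.13% in control femora, with rank 3 in knockout-labelled and rank 6 in control femora among the collagens by transcript FPKM. Col1a2 and Col1a1 held ranks 1 and 2 in both groups.

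Ratios of 2 chains within a library do not depend on the scaling between libraries, and 15 were compared by an exact permutation test. The smallest p that 3 against 3 allows is 0.1 (0.125 adjusted over the 15 ratios), so none could pass 0.05, and the sizes are given with their spread. The main chains of types I, V and IV kept close ratios. Col1a1 to Col1a2 was 1.83 ± 0.00838 in knockout-labelled and 1.81 ± 0.0104 in control femora by gene FPKM (SD, n = 3 each), a log2 difference of 0.02 with the groups apart, and 0.863 and 0.855 by transcript FPKM, where they overlapped. Col5a1 to Col5a2 was 0.648 ± 0.0201 in knockout-labelled and 0.666 ± 0.0164 in control femora and overlapped (exact permutation p = 0.4).

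Other pairs shifted beyond the spread between replicates. Col6a1 to Col6a2 was 1.87 ± 0.0741 in knockout-labelled and 1.69 ± 0.0283 in control femora, a log2 difference of 0.14 (SE 0.036). Col6a3 to Col6a1 was 0.289 ± 0.0134 in knockout-labelled and 0.389 ± 0.00334 in control femora, a log2 difference of -0.43 (SE 0.039). Col8a1 to Col8a2 was 0.839 ± 0.0207 in knockout-labelled and 1.12 ± 0.0702 in control femora (-0.41, SE 0.057), and Col11a1 to Col11a2 was 0.304 ± 0.00919 and 0.372 ± 0.00129 (-0.29, SE 0.025). In each of these the groups did not overlap (SD, n = 3 each; exact permutation p = 0.1). By transcript FPKM the levels of these ratios were others, while their differences were of similar size. There Col6a1 to Col6a2 was 0.984 in knockout-labelled and 0.880 in control femora, a log2 difference of 0.16, and Col6a3 to Col6a1 was 0.361 and 0.505, a difference of -0.48. Col8a1 to Col8a2 was 1.24 in knockout-labelled and 1.65 in control femora on that scale (-0.41), and Col11a1 to Col11a2 was 0.416 and 0.519 (-0.32). Between types and by gene FPKM, Col3a1 to Col1a1 was 0.0628 ± 0.000619 in knockout-labelled and 0.0180 ± 0.000331 in control femora, a log2 difference of 1.80 (SE 0.017), while Col2a1 to Col1a1 differed by -0.23 (SE 0.020), Col5a1 to Col1a1 by 0.31 (SE 0.015) and Col12a1 to Col1a1 by 0.55 (SE 0.032). The shifts of Col10a1 to Col2a1 (3.57, SE 0.68), Col9a3 to Col9a2 (2.24, SE 0.22) and Col4a5 to Col4a1 (1.37, SE 0.21) rest on rare genes; Col4a5 to Col4a1 was 0.0113 in knockout-labelled and 0.00444 in control femora, with the groups apart.

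**Figure D3:**
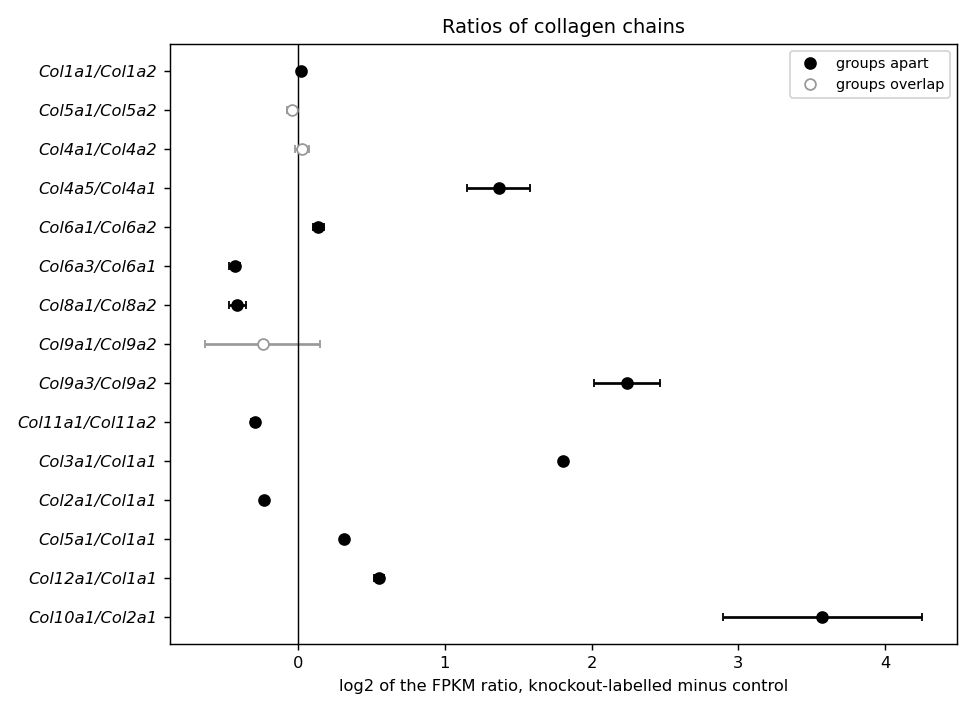
log2 difference, knockout-labelled minus control, of 15 ratios of gene FPKM of 2 collagen chains; bars are ±1 SE over 3 libraries per group, filled points have groups that do not overlap and open points have groups that do. The ratios of Col1a1 to Col1a2 and of Col4a1 to Col4a2 lie at 0.02 and 0.03, and that of Col3a1 to Col1a1 lies at 1.80.

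The transcript table divided the 44 genes into 189 transcripts, and 7 genes had a second transcript with at least 8% of the gene's counts. For Col13a1, Col16a1, Col18a1, Col25a1 and Col2a1 the leading transcript's share of counts overlapped between the groups, although for Col16a1 its share of transcript FPKM did not (35.7% in knockout-labelled and 48.2% in control femora). For Col6a2 and Col11a2 it did not overlap on either scale. The leading transcript of Col11a2 held 56.4% ± 2.08 of the gene's counts in knockout-labelled and 69.1% ± 1.69 in control femora, and that of Col6a2 held 76.3% ± 0.901 and 84.6% ± 0.379 (SD, n = 3 each; exact permutation p = 0.1 for each, 0.35 adjusted over the 7 genes). These shares are estimates that the authors' software assigned from reads common to several transcripts.

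Exons of Col2a1 and Col11a2 are shown because they are coding parts by which the transcripts differ, and they were chosen after the transcript shares had been seen. The transcripts also differ outside these exons. The leading Col11a2 transcript has 6048 bases, 4950 of them coding, and the second has 5394, of which 5208 are coding. Which parts of the RNA held the reads behind the shares was not tested. Col2a1 exon 2 encodes a cysteine-rich domain of the propeptide that cartilage precursors include and mature chondrocytes skip, and Col11a2 exons 6 and 8 lie in the variable part of its aminoterminal propeptide. Sequences are from GENCODE M21 on GRCm38, in the direction of the gene and in lower case throughout, at chr15:98000403-98000606 (minus strand) for Col2a1 and at chr17:34045771-34045848 and chr17:34047098-34047277 (plus strand) for Col11a2:
Col2a1 exon 2: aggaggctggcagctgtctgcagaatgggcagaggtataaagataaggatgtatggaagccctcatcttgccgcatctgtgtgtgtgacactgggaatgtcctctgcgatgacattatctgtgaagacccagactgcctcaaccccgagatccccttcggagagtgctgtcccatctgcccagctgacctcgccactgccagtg
Col11a2 exon 6: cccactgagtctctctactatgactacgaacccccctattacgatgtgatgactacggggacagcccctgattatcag
Col11a2 exon 8: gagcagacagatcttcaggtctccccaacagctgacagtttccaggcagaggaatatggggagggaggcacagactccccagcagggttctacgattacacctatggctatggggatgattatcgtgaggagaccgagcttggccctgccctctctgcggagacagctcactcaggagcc
Col2a1 exon 2, of 204 bases, was present in 48.1%, 43.2% and 43.3% of full-length Col2a1 counts in knockout-labelled and in 53.6%, 47.9% and 43.2% in control libraries. The groups overlapped (exact permutation p = 0.7) although the gene itself was 4.50-fold lower with TMM. Col11a2 exon 6, of 78 bases, was present in 21.6%, 24.2% and 21.5% of full-length Col11a2 counts in knockout-labelled and in 12.9%, 14.1% and 13.5% in control libraries. Exon 8, of 180 bases, was present in 29.5%, 25.3% and 25.4% in knockout-labelled and in 17.7%, 19.7% and 18.9% in control libraries. By these estimated transcript shares, both exons were more frequent in each knockout-labelled library than in any control (exact permutation p = 0.1 for each).

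Col6a2 ends in alternative last exons. The leading transcript and the second one differ in the coding sequence of that exon, whose first 150 coding bases are shown for each (GENCODE M21, GRCm38, minus strand, chr10:76596662-76596811 for the leading and chr10:76599744-76599893 for the second transcript):
Col6a2 leading transcript, last coding exon: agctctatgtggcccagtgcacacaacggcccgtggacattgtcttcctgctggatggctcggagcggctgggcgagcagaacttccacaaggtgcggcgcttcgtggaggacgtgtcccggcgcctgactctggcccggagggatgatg
Col6a2 second transcript, last coding exon: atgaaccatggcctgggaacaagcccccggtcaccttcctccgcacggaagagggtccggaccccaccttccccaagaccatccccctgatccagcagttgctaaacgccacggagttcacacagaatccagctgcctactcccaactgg
Set side by side without alignment, 41 of the 150 positions hold the same base (27.3%). The stretches lie at different places in the gene, so this count does not show whether reads are unique to a transcript, which was not tested. The second transcript held 19.9%, 20.0% and 22.0% of Col6a2 counts in knockout-labelled and 13.6%, 13.6% and 13.3% in control libraries. Its share was higher in every knockout-labelled library, while the gene as a whole was 3.11-fold lower with TMM.

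**Figure D4:**
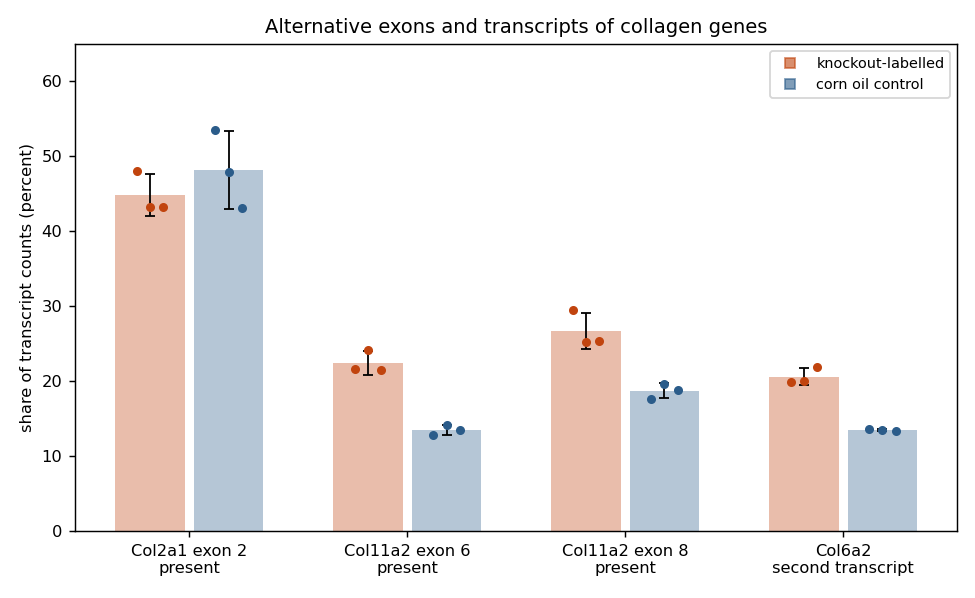
Share of a gene's counts (percent) with Col2a1 exon 2, with Col11a2 exon 6 or exon 8, and in the second Col6a2 transcript, in knockout-labelled (orange, left) and corn oil control libraries (blue, right); bars are means of 3 libraries, error bars are SD and points are libraries. The groups overlap for Col2a1 exon 2 and do not for the other shares.

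Genes that make, trim and break down collagen, or inhibit its breakdown, were mostly lower as well. In the 7 lists of such genes and of basement membrane partners, 71 genes in all, 51 were lower and 9 were higher with TMM, where 28.8% of all genes tested were lower and 28.7% higher; with library totals 58 were lower and 3 higher. Of 13 genes for hydroxylation and glycosylation 10 were lower and 3 did not pass. P3h1, a prolyl 3-hydroxylase, averaged 7.82 ± 0.268 FPKM in knockout-labelled and 32.3 ± 0.802 FPKM in control femora (SD, n = 3 each; log2 fold change -1.62), and P4hb, the disulfide isomerase subunit of prolyl 4-hydroxylase, and Plod2, a lysyl hydroxylase, fell by 0.73 and 1.16. Of 12 folding and secretion genes 9 were lower and 2 were higher. Serpinh1, the collagen chaperone HSP47, fell by 1.37, Fkbp10, another chaperone of collagen, by 1.52, and Sparc, a collagen-binding matrix protein, by 1.79 on the log2 scale. Their higher members were Tmem38b, an ion channel of the endoplasmic reticulum (0.99), and Sec23a, a coat protein of secretory vesicles (0.33 with TMM but -0.09 with library totals and -0.44 with TPM), named after their values were seen.

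Genes that act on collagen outside the cell were also mostly lower. Among propeptide processing genes 4 of 8 tested were lower and 1 higher. Bmp1, the procollagen C-proteinase, Adamts2, the N-proteinase, and Pcolce, the enhancer of Bmp1, fell by 1.74, 1.67 and 1.67. The higher gene was Pcolce2, a second enhancer, named after its value was seen, at 1.84 ± 0.0906 FPKM in knockout-labelled and 0.701 ± 0.123 FPKM in control femora (SD, n = 3 each; log2 fold change 1.82). All 6 crosslinking genes were lower, with Lox, Loxl1 and Loxl2, the lysyl oxidases, down by 1.98, 1.03 and 1.74. Collagen receptors had 7 of 10 members lower and 2 higher, and Ddr2, a receptor kinase for fibrillar collagen, Itga11, an integrin chain, and Mrc2, an uptake receptor, were lower, with log2 fold changes of -1.01, -1.31 and -1.05. The higher receptors, named after their values were seen, were Ddr1 (0.42 with TMM, 0.00 with library totals and -0.33 with TPM) and Gp6, a platelet receptor (0.34, -0.08 and -0.37 under the same scalings). The degradation list, which holds proteinases and also their inhibitors Timp1, Timp2 and Timp3, had 10 of 10 lower, with a median log2 fold change of -2.02. Mmp13, Ctsk and Mmp9, the collagenase, cathepsin and gelatinase of bone resorption, changed by -4.09, -2.71 and -2.46. The inhibitor genes Timp1, Timp2 and Timp3 changed by -2.60, -0.52 and -0.33.

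Basement membrane partners were split, as their collagens were. Of 10 genes 5 were lower and 4 higher with TMM, and the median log2 fold change was -0.06. With TPM 9 were lower and 1 did not pass, where 77.9% of all genes tested were lower. Hspg2, which encodes perlecan, fell by 0.45 and the laminin chain gene Lamb1 by 0.91, while Lamb2, a laminin chain of the neuromuscular junction and kidney, was higher by 0.44 with TMM, at 0.01 with library totals and at -0.34 with TPM. The others that were higher with TMM, named after their values were seen, were Lama2 (0.89), the laminin chain of muscle, Nid1 (0.38) and Lama5 (0.21), and with TPM Nid1 and Lama5 were lower, at -0.38 and -0.47.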

How the data were processed

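RNA was sequenced from the femora of 6 mice, 3 knockout-labelled and 3 corn oil controls, as poly(A)-selected, stranded, paired-end libraries, per the labels' protocols. Values were deposited for genes and for transcripts. FPKM values were computed by the authors and are given as deposited, without rescaling. The estimated counts deposited by the authors are whole numbers; low counts pile up at multiples of 4, so a read pair was taken as about 4 counts, and 3 pairs (12 counts) as the limit that a count of 0 allows, for counting error only. Tools named in the submitters' processing notes are RSEM, StringTie, HISAT2 and fastp, with the build GRCm39; for their versions, filters and strand setting nothing is given in the sources used. Coordinates of genes are those of the tables, and sequences come from RefSeq promoter windows (GRCm38.p6) and GENCODE M21 (GRCm38).

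Estimated counts, rounded to whole numbers, were fitted in edgeR 4.0.16 (R 4.3.3) over the whole gene table with filterByExpr, TMM scaling, the group as the only term and the two-sided quasi-likelihood F test, adjusted over 20388 genes (threshold 0.05). The SE of a log2 fold change comes from log2 CPM (prior count 2) of the replicates. Single values per library were compared by exact permutation tests, 3 against 3. The steps were tested on simulated counts. Alternatives used median-of-ratios scaling, library totals, DESeq2 1.42.0, limma 3.58.1 on log2(FPKM + 1), log2(FPKM + 0.1) or log2(TPM + 1) (genes at 1 FPKM or more in 3 libraries), no filter, counts divided by 4, a replicate block and leaving out each library. The transcript FPKM sums, the share without type I collagen and the exon shares were added after seeing the data.

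Members, classes and lists were chosen with earlier results of these data known. Values were given per library, in each class, for the 2 most abundant members, those with the highest and the lowest log2 fold change and those called higher. Of each partner list up to 3 members were named by adjusted p, with their log2 fold changes.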

Additional observations from a re-analysis of the deposited data

How the results depend on the processing

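All 42 collagens kept their direction and their side of the threshold with DESeq2 and with median-of-ratios scaling, and so did all 40 tested on counts divided by 4. The count of lower collagens was 29 with the replicate block and without any 1 library, 31 with library totals and 26 of the 27 tested under TPM. The count of higher collagens depended on the setting. It was 8 in the fit described above, 7 on counts divided by 4, 6 in edgeR without the filter on low counts and 4 with library totals. With limma it was 4 on log2(FPKM + 1) without a filter. It was 1 with limma on log2(FPKM + 1), 1 on log2(FPKM + 0.1) and 1 on log2(TPM + 1), these last 3 testing only the 27 collagens above the filter. Without 1 library it was 5 to 7. Of all genes, 3379 were higher with library totals, 2822 with limma on log2(FPKM + 1), 2819 on log2(FPKM + 0.1), 3306 without a filter and 1832 with TPM, where TMM gave 5860, and 10339, 10239 and 10738 were lower with library totals, limma without a filter and TPM, where TMM gave 5872. In the partner lists 3 genes were higher with library totals and 2 with TPM, where TMM gave 9. With the replicate block, 7 collagens were higher and 29 lower (27.8% and 27.8% of all genes), Col9a3 losing its call (edgeR adjusted p = 0.090). Deviations of same-numbered libraries from their group means correlated at r from -0.056 to -0.013. Libraries of a group differed so little that this could not tell whether the numbers pair the animals. Col20a1 turned to -0.26 with library totals and -0.091 in limma without a filter, and ranged from -0.031 to 0.33 without 1 library, and Col4a3 from -0.19 to 0.25. Likewise the log2 difference of Col4a1 to Col4a2 ranged from -0.015 to 0.066 and that of Col9a1 to Col9a2 from -0.44 to 0.14. The cause of these changes was not tested. Depth limits the 17 collagens under 1 FPKM, of which Col10a1, Col17a1, Col19a1 and Col4a6 reached no more than 16.5 read pairs in a library.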
